A study of Mus musculus with 6 samples.

Results

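Long domains of H3K27me3 were taken from the peaks called in water-treated mouse neural stem and progenitor cells, as those with a deposited length of 10000 bp or more. The rule found 398 of the 7643 water H3K27me3 peaks, which is 5.21% of the list and 36.2% of the bases it covers, 7.48 of 20.7 Mb. The 4 libraries used were H3K27me3 and H3K4me3 from cells given 10 mM crotonate, and H3K27me3 and H3K4me3 from cells given water as the control, each for 24 h. All came from the E13.5 mouse forebrain as cultured cells at passage 2 or 3, grown with EGF and FGF, and were assayed by CUT&Tag, where a transposase is tethered to a marked nucleosome through an antibody and cuts the DNA there. There was 1 library per mark and treatment, so no comparison between treatments has a replicate check, no test was made, and intervals cover counting error only. The labels do not say how many embryos or cultures a library came from. A further 2 samples with normal rabbit IgG were not analysed here.

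H3K27me3 is the mark that Polycomb repressive complex 2 writes through its catalytic subunits Ezh2 and Ezh1, and it covers developmental regulators that a cell keeps silent. The subunit Eed binds the mark and stimulates further writing nearby, which lets the mark spread into long blanketing domains. Polycomb repressive complex 1 contains readers of the mark. H3K4me3 marks starts of transcription and CpG islands, through Set1 and MLL complexes, and its presence together with H3K27me3 at a promoter is known as bivalency. Crotonate is a short-chain fatty acid that cells turn into crotonyl-CoA, the donor for lysine crotonylation of histones.

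The labelled cell type was checked against marker genes. All 10 listed genes of neural stem and progenitor cells, among them Sox2, Nes, Pax6, Vim and Fabp7, held an H3K4me3 peak after crotonate and in water, and none overlapped a water H3K27me3 peak of any length. The longest H3K4me3 peak over Sox2 was 11.6 kb after crotonate and 6.89 kb in water. Over Nes it was 5.00 kb after crotonate and 4.70 kb in water, and over Pax6 4.48 kb after crotonate and 3.24 kb in water. Markers of other cell types were not inside long domains either, with 0 of 6 for neurons, 0 of 4 for astrocytes, 0 of 5 for the oligodendrocyte lineage, 0 of 4 for microglia, 0 of 3 for endothelium and 0 of 3 for fibroblasts. Only 1.81% of all protein-coding genes overlapped a long domain, so none is the likely count in lists this short. A water H3K27me3 peak of any length overlapped 2 of 6 neuronal and 1 of 5 oligodendrocyte lineage markers. It overlapped none of the astrocyte, microglial, endothelial and fibroblast markers, beside 2222 of all 21883 genes. H3K4me3 lay on 5 of the 6 neuronal markers in both treatments, and on 4 of 5 oligodendrocyte lineage markers after crotonate and 3 of 5 in water. It lay on 1 of 4 astrocyte and 1 of 3 endothelial markers in both treatments, and on 1 of 4 microglial and 1 of 3 fibroblast markers after crotonate and none of either in water. The marker genes of progenitors were thus all marked, but those of neurons and of the oligodendrocyte lineage mostly were too. Over all 21883 protein-coding genes, H3K4me3 lay on 13160 after crotonate and 12250 in water. Marks on most members of such short lists therefore do not identify a cell type. The peaks alone do not say how many cells of each type there were.

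Genes inside the domains fall into 3 groups by H3K4me3 at their start, and 2 promoters of each are shown so that their CpG content can be read. Hoxc4 and Hoxa2, homeobox genes of the trunk and hindbrain, lay in long domains with no H3K4me3 peak at their start in either list. Lhx4, a LIM homeobox factor, and Gdf7, a BMP family ligand of the dorsal neural tube, had an H3K4me3 peak at their start after crotonate only. Fgf9, a fibroblast growth factor, and Sp9, a zinc finger factor of ventral forebrain neurons, had one in both. The sequences are RefSeq promoters of the build GRCm38.p6, from 250 bases before to 50 after the start, written 5′ to 3′ on the gene's strand, and capitals mark CG dinucleotides.
Hoxc4 promoter, no H3K4me3, chr15:103034145-103034444, plus strand: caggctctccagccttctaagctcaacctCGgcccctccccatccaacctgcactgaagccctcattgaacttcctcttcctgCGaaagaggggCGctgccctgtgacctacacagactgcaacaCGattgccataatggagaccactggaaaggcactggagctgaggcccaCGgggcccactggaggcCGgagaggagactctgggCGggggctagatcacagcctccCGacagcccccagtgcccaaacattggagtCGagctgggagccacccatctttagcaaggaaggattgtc
Hoxa2 promoter, no H3K4me3, chr6:52164782-52165081, minus strand: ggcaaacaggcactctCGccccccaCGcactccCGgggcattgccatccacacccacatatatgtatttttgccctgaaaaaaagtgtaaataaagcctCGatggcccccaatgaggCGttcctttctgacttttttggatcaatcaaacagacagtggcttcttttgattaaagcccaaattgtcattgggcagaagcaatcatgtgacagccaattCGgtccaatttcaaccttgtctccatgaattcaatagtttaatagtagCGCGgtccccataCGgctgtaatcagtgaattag
Lhx4 promoter, H3K4me3 after crotonate only, chr1:155741978-155742277, minus strand: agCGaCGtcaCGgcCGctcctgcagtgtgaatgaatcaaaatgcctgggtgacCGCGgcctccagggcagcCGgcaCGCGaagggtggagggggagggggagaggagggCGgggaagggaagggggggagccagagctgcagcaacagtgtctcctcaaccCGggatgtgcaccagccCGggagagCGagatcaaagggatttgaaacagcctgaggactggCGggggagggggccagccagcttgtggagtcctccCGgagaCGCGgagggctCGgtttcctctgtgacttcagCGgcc
Gdf7 promoter, H3K4me3 after crotonate only, chr12:8301905-8302204, minus strand: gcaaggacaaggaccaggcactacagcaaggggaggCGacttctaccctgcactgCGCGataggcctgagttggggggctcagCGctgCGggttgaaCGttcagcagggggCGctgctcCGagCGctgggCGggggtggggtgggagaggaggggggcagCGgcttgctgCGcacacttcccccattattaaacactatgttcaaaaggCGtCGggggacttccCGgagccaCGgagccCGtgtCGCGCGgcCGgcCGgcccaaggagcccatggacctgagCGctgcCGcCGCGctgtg
Fgf9 promoter, H3K4me3 in both, chr14:58072436-58072735, plus strand: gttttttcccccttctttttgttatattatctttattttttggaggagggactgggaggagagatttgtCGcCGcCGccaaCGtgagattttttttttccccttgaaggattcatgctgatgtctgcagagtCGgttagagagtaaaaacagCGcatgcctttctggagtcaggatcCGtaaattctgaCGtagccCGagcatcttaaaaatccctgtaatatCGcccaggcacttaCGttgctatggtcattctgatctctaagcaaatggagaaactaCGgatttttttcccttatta
Sp9 promoter, H3K4me3 in both, chr2:73271676-73271975, plus strand: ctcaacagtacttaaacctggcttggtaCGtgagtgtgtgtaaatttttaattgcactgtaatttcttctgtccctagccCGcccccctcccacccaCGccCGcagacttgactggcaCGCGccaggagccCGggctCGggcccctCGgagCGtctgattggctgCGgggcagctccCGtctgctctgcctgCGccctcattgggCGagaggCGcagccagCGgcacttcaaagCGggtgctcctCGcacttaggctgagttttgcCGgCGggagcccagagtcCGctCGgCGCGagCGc
Hoxc4 and Hoxa2 each hold 9 CG in 300 bases, Lhx4 holds 19, Gdf7 26, Fgf9 12 and Sp9 25. The 176 starts in long domains with no H3K4me3 had a median of 16.5 CG and a lower quartile of 10. The Hoxc4 and Hoxa2 promoters are thus poorer in CG than most of that group. The motif searched was CG, which reads the same on both strands, and at least 1 was present in 95.4% of the 21262 promoters of protein-coding genes in the table.

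In the water library the domains had a median length of 14880.5 bp, and 119 of them reached 20000 bp. Their median pileup, the height of the fragment stack at the peak summit in the authors' scaled units, was 95.3, against 35.6 for water peaks of 5 to 10 kb, counting up to but not including 10 kb, and 15.8 for those of 2 to 5 kb, counted likewise. These are values of the list that chose the domains and serve as description. At the lower limit the domains did not stand apart. The 5 shortest members, from 10009 to 10100 bp, included domains on Tfap2c, Tfap2e and Prkch and a stretch with no protein-coding gene. The 5 peaks just under the limit, from 9934 to 9988 bp, lay on Notum, Wnt3a, Kirrel2 with Nphs1, Gpr50 and another such stretch. The domains were spread over 20 chromosomes, with 46 on chromosome 2 and 29 on chromosome 11.

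Genes inside the domains were counted from a reference annotation. Of 21883 protein-coding genes, 180 lay wholly inside a long domain, which is 0.823% of them, and 397 overlapped one by at least 1 bp, which is 1.81%. A whole gene was held by 136 domains, 122 of them with 1 gene, and 4 domains held 8 or more. Another 194 domains covered a part of a gene, such as its start, and 68 (17.1%) overlapped no protein-coding gene. By family, chosen by symbol after the peaks had been seen, 7 of 8 Lhx genes, 5 of 6 Gata genes, 5 of 6 Irx genes, 5 of 6 Dlx genes, 6 of 9 Pax genes, 8 of 14 Nkx genes and 17 of 44 Fox genes overlapped a long domain. The same count was 2 of 19 for Sox genes, 0 of 367 for zinc finger genes named Zfp, 0 of 69 protocadherins, 0 of 1110 olfactory receptor genes and 0 of 80 ribosomal protein genes. None of 15 housekeeping genes, Actb and Gapdh among them, overlapped one.

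The Hox genes, which set position along the body axis behind the forebrain, were all inside. All 39 lay whole in 7 long domains, beside 0.823% of all protein-coding genes in any long domain. The Hoxc domain at chr15:102901895-103072344 was the longest of all and had 171691 bp after crotonate and 170450 bp in water, with both ends within 1 kb of their place in water. The Hoxa domain had 139761 bp after crotonate and 132161 bp in water, and the Hoxd domain with Evx2 had 126023 bp after crotonate and 116786 bp in water. The main Hoxb domain had 115277 bp after crotonate and 110968 bp in water, and the separate Hoxb13 domain 45197 bp after crotonate and 43547 bp in water. The crotonate peaks over the Hoxa, Hoxd, main Hoxb and Hoxb13 domains each also overlapped another water H3K27me3 peak. H3K4me3 lay on 1 of the 39 Hox genes after crotonate and on none in water.

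The same domains hold 5 microRNA hairpins, so the sequences of their 5p arms are shown with the seed, bases 2 to 8, in capitals. The mature sequences are from RefSeq on GRCm38.p6.
mmu-miR-10a-5p: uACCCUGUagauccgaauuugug
mmu-miR-10b-5p: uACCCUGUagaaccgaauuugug
mmu-miR-196a-5p: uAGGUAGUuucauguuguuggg
mmu-miR-196b-5p: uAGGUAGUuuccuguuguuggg
miR-10a and miR-10b share the seed ACCCUGU, and miR-196a and miR-196b share AGGUAGU. Mir10a and Mir196a-1 lie in the Hoxb domain, Mir10b in the Hoxd domain, Mir196a-2 in the Hoxc domain and Mir196b in the Hoxa domain. In all, 12 of the 1005 hairpins in the table lay in 10 long domains. The others included Mir183 and Mir96, sensory organ microRNAs, in a domain of 19213 bp after crotonate and 16262 bp in water that overlapped no protein-coding gene. Mir375 lay in the Fev and Cryba2 domain, and Mir483 in that of Igf2.

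Genes that direct other regions of the nervous system were the next most complete group. Of 28 listed hindbrain, spinal cord and midbrain factors, 25 overlapped a long domain, beside 1.81% of all protein-coding genes. This list and those below were drawn up with earlier results of these data known. The domain over En1, an organizer of the midbrain and hindbrain border, had 41.0 kb after crotonate and 38.6 kb in water. That over Lhx1, a factor of spinal interneurons, had 31.9 kb after crotonate and 23.9 kb in water. The crotonate peak at Lhx1 also overlapped another water H3K27me3 peak. The domain over Olig3, a factor of dorsal hindbrain and spinal progenitors, had 19.1 kb after crotonate and 17.4 kb in water. H3K4me3 lay anywhere on the gene in 14 of these 25 after crotonate and in 5 in water. Over all 397 genes that overlap a long domain it did so in 225 (56.7%) after crotonate and 119 (29.97%) in water, so the share after crotonate was near that of all such genes. En2 had H3K4me3 in both, with a peak of 4.62 kb after crotonate and 4.36 kb in water, while Tlx3, Evx1, Nkx6-1 and Olig3 had none in either list.

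Factors of the forebrain itself were divided. Of 15 ventral forebrain and interneuron factors 10 overlapped a long domain, and of 16 dorsal, cortical and proneural factors 8 did. Of all protein-coding genes 1.81% did. Dlx5 and Dlx6, which drive GABAergic differentiation, shared a domain of 46.3 kb after crotonate and 45.8 kb in water. Their neighbours in function, Dlx1 and Dlx2, shared one of 24.2 kb after crotonate and 22.5 kb in water. The Neurog2 domain, over a proneural gene of cortical progenitors, was overlapped by 2 crotonate peaks, the longer of 23.9 kb, and was 24.3 kb in water. H3K4me3 lay on 8 of the 10 ventral genes after crotonate and on 4 in water, and on 7 of the 8 dorsal genes after crotonate and 2 in water. Over all genes that overlap a long domain the shares were the 56.7% after crotonate and 29.97% in water given above. The peak over Neurog2 was 2.16 kb after crotonate and 1.29 kb in water, and that over Dlx1 2.09 kb after crotonate and 0.735 kb in water. Neurod2, Neurog1, Fezf2, Emx1, Lhx6 and Lhx8 had a peak after crotonate and none in water, and Isl1, Nkx2-1 and Tbr1 had none in either list.

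Eye, olfactory and pituitary homeobox factors overlapped a long domain in 13 of 18 cases, beside 1.81% of all protein-coding genes. Six3, a factor of the anterior forebrain and eye, lay in a domain of 26.3 kb after crotonate and 26.0 kb in water and had 3 H3K4me3 peaks after crotonate and none in water. Six6, a retinal and pituitary factor, lay in one of 43.8 kb after crotonate and 23.2 kb in water. The crotonate peak at Six6 also overlapped another water H3K27me3 peak. H3K4me3 lay on 7 of the 13 genes after crotonate and on 2 in water, beside 56.7% after crotonate and 29.97% in water of all genes in long domains.

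Factors of mesoderm, endoderm and other non-neural tissues overlapped a long domain in 33 of 43 cases, beside 1.81% of all protein-coding genes. Hand2, a factor of heart and limb, lay in a domain of 52438 bp after crotonate and 50550 bp in water. The Gata4 domain, over a heart and gut factor, had 48557 bp after crotonate and 48314 bp in water, and that of Tcf21, a factor of visceral mesoderm, 44627 bp after crotonate and 44108 bp in water. These 3 were the longest of the group and held no H3K4me3 in either list. H3K4me3 lay on 12 of the 33 genes after crotonate and on 5 in water, beside 56.7% after crotonate and 29.97% in water of all genes in long domains. All 33 of the domains counted for these genes, taking the longest for each gene, were longer after crotonate and none was split. Counted likewise over all protein-coding genes, 268 of 308 domains were longer and 35 were split.

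Among signalling genes, long domains overlapped 6 of 19 Wnt ligands and 5 of 25 BMP, hedgehog and FGF ligands and BMP inhibitors, beside the 1.81% of all protein-coding genes. Shh, the ventral morphogen, lay in a domain of 10.9 kb after crotonate and 10.8 kb in water, with 39.8% of the water domain under H3K4me3 after crotonate and 21.3% in water. The Wnt1 domain, over a ligand of the dorsal midline, was overlapped by 2 crotonate peaks, the longer of 20.3 kb, and was 21.3 kb in water. Of 30 transmitter and channel genes 5 overlapped a long domain, among them Gad1 and Gad2, which make GABA, and Slc32a1, which loads it into vesicles. The Slc32a1 domain had 27.8 kb after crotonate, in a peak that also overlapped another water H3K27me3 peak, and 17.3 kb in water. Of 26 Polycomb subunits 1 overlapped one, Pcgf1, at a domain of 20.1 kb after crotonate and 18.6 kb in water that also spans the homeobox gene Tlx2.

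The H3K27me3 library after crotonate was compared at these places to ask whether the long domains were kept. All 398 were overlapped by a crotonate H3K27me3 peak, 100% with an exact 95% interval of 99.1 to 100%, against 91.7% of the whole water list. Every water peak of 5 to 10 kb was overlapped too. The least covered long domain kept 81.9% of its bases and 253 domains kept all of them. The crotonate list was larger, with 15879 peaks over 33.0 Mb against 7643 peaks over 20.7 Mb in water. From the scaling of the pileups, the H3K27me3 library was estimated at 0.811 times and the background library of the peak caller at 1.80 times the depth after crotonate relative to water. The part of depth in the length changes below was not tested.

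The longest crotonate peak over a domain was longer than the domain in 336 of 398, or 84.4% with an exact 95% interval of 80.5 to 87.8%. This share was close to the 83.9% of all recovered water peaks. It was shorter in 62 domains, against 16.1% of all recovered water peaks. The median change was 1927 bp, or 0.16 on the log2 scale. For water peaks of 5 to 10 kb the median log2 change was 0.22 with 80.3% longer, and for those of 2 to 5 kb it was 0.37 with 76.5% longer. The share longer was near that of other peaks, and the fold was smaller. Selecting by water length tilts such changes toward shorter. Selecting by crotonate length tilts them toward longer, so the count made that way is given as a description and does not correct the first. Of 537 crotonate peaks of 10000 bp or more, 493 (91.8%) were longer than the longest water peak they overlapped. A long water domain was overlapped by 369 of them, and 13 of these overlapped 2 or more. In the remaining 168 the longest water peak was under 10000 bp, with a median of 7629.5 bp.

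**Figure D1:**
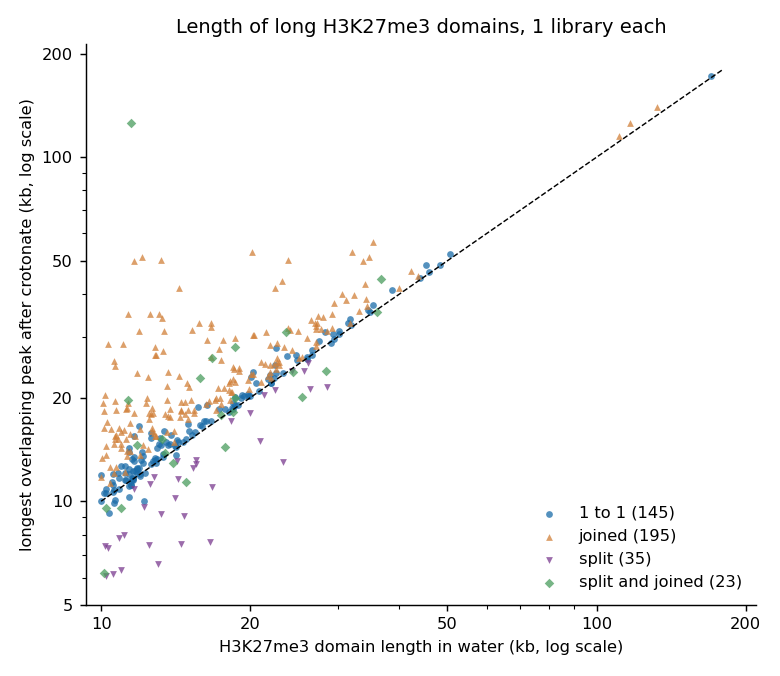
Length of the longest overlapping crotonate peak (vertical, kb, log scale) against the length of each of the 398 long H3K27me3 domains in water (horizontal, kb, log scale), with equal lengths on the dashed line. The 145 domains paired 1 to 1 (circles) lie close to the line, the 195 joined and not split (triangles) lie above it, the 35 split and not joined (inverted triangles) lie below it, and the 23 both split and joined (diamonds) lie on either side.

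The change of length differed between joined and split domains. A domain was called joined where its crotonate peak also overlapped another water peak, and split where several crotonate peaks overlapped it. Joined domains numbered 218 (54.8%), against 36.2% of the water list. Split domains numbered 58 (14.6%), against 5.4% of the water list and 14.6% of peaks of 5 to 10 kb. The 195 domains joined and not split were all longer, which the definition makes likely, by a median of 4678 bp. The 35 split and not joined were all shorter by their longest piece, by a median of -3024 bp, yet from the first piece to the last their median change was 310 bp.

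The 145 domains that paired with 1 crotonate peak and no other water peak show the lengths without joining or splitting. Of these, 129 (89.0%) were longer, by a median over all 145 of 668 bp or 0.06 on the log2 scale. The changes ran from -2208 to 5344 bp. At least 1 kb was gained by 50 domains and lost by 3. Runx3, a factor of immune and sensory neuron development, had the largest gain, with 27868 bp after crotonate and 22524 bp in water. Fgf9 had the largest loss, with 9987 bp after crotonate and 12195 bp in water. The next losses were at Cckar, a cholecystokinin receptor, with 9226 bp after crotonate and 10382 bp in water, and at Gad1, with 10303 bp after crotonate and 11363 bp in water. In 114 of the 145 the summit stood within 1000 bp of its place in water.

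Joined domains gave the largest gains. Hoxd1 lay in a water domain of 11494 bp next to the Hoxd cluster, and after crotonate the cluster's peak of 126023 bp reached into it. At Nr2f2, an orphan nuclear receptor of interneurons and vessels, 1 crotonate peak of 52918 bp spanned the water domain of 20179 bp and its neighbour. Skap2, beside the Hoxa cluster, had 2 water domains of 23830 and 13228 bp under 1 crotonate peak of 50365 bp. A further Skap2 domain was shorter, with 9859 bp after crotonate and 10617 bp in water. Atoh8, a basic helix-loop-helix factor, had 34930 bp after crotonate and 13074 bp in water. At Tenm4, a teneurin, 1 crotonate peak of 34917 bp overlapped water domains of 12553 and 11327 bp. Other Tenm4 domains, of 14103 and 24427 bp in water, were split, with longest pieces of 10248 and 23746 bp after crotonate. Some of the joined domains are neighbours in 1 crotonate peak and so count the same peak more than once.

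Split domains gave most of the losses. The Zfhx4 domain, over a zinc finger homeobox factor, was 23247 bp in water, and the crotonate list had 3 peaks there of 12993, 5442 and 4145 bp. Over Gbx2, a factor of the anterior hindbrain, 2 crotonate peaks of 14940 and 5022 bp stood against 20917 bp in water. At Tbr1, a factor of deep layer cortical neurons, 2 crotonate peaks of 21189 and 4425 bp stood against 26406 bp in water. At Zfhx4 the 3 crotonate peaks together spanned 23515 bp, at Gbx2 the 2 spanned 20985 bp, and at Tbr1 they spanned 26196 bp. The spans thus differed from the water lengths by 268 bp at Zfhx4, 68 bp at Gbx2 and -210 bp at Tbr1. Of the 62 domains that were shorter, 46 were split, and by the span of all pieces 21 remained shorter.

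**Figure D2:**
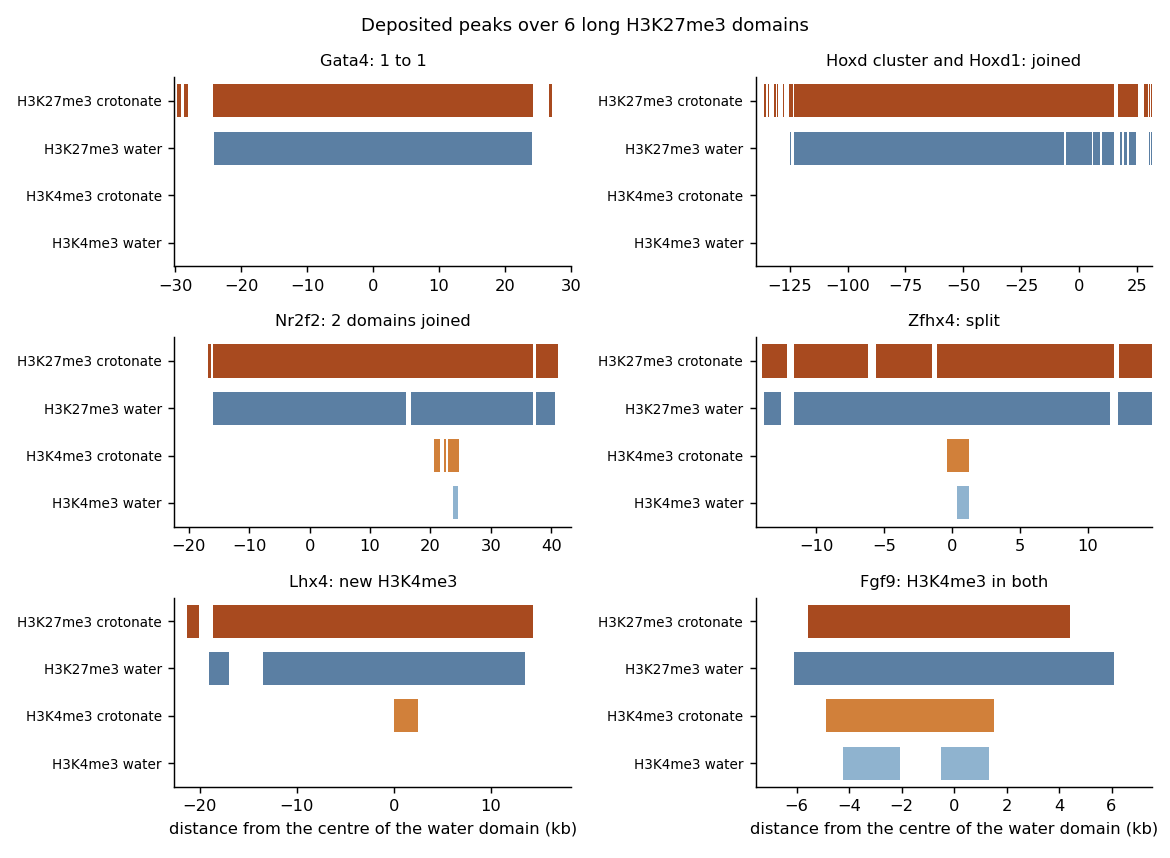
Deposited peaks over 6 long domains, with distance from the centre of the water domain in kb (horizontal) and 1 row per list, H3K27me3 above H3K4me3 and crotonate above water. Gata4 is nearly the same in both lists, the Hoxd1 and Nr2f2 domains are joined to neighbours after crotonate, Zfhx4 is in 3 crotonate peaks, and Lhx4 and Fgf9 show H3K4me3 after crotonate only and in both lists.

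The edges were followed on their own, as 2 per domain, with outward shifts positive. Over 796 edges the median shift was 722 bp, with quartiles of 110 and 2405 bp. An outward move of 500 bp or more was seen at 445 edges, 55.9% with an exact 95% interval of 52.4 to 59.4%, against 45.4% over the whole water list. An inward move of that size was seen at 15 edges (1.88%), against 2.71% over the list. The median was 408.5 bp for water peaks of 5 to 10 kb and 354 bp for those of 2 to 5 kb. In the 1 to 1 domains alone the median was 226 bp and 32.8% of edges moved outward by 500 bp or more. Edges of the same domain are not independent.

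Edges that had H3K4me3 beside them in water moved less than the others. A water H3K4me3 peak reached over the edge or started within 2 kb outside it at 27 edges. Their median shift was 102 bp and 5 of the 27 (18.5%, exact 95% interval 6.3 to 38.1%) moved outward by 500 bp or more. At the other 769 edges the median was 756 bp and 57.2% did, with an interval of 53.6 to 60.7%. The same order was seen in shorter peaks, where peaks of 5 to 10 kb had medians of 8.5 bp beside H3K4me3 and 432.5 bp away from it, and peaks of 2 to 5 kb 42 bp beside it and 379.5 bp away from it. This comparison was chosen after the peaks had been seen.

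Because a neighbouring H3K27me3 peak gives an edge something to join, edges were also divided by whether another water H3K27me3 peak lay within 5 kb. With no such neighbour the median shift was 99 bp at 16 edges beside H3K4me3 and 423.5 bp at 264 edges away from it. With a neighbour it was 167 bp at 11 edges beside H3K4me3 and 1331 bp at 505 edges away from it. The edge at Lhx1 moved by -7 bp, that at Nxph4 by 102 bp, that at Neurod2 by 226 bp and that at Tbx2 by 271 bp. The 5 edges that moved outward by 500 bp or more were 1 at Bcor, by 4830 bp, and those at Irx5, by 3444 bp, at Hmx3 with Hmx2, by 2093 bp, at Plag1, by 1377 bp, and at a domain with no protein-coding gene, by 674 bp. An inward move of that size was seen at 3 of the 27 edges, at Sp6 by -730 bp, at Maml3 by -647 bp and at a domain with no protein-coding gene by -644 bp, against 12 of the 769 other edges. The edges beside H3K4me3 are few, 27 of 796.

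**Figure D3:**
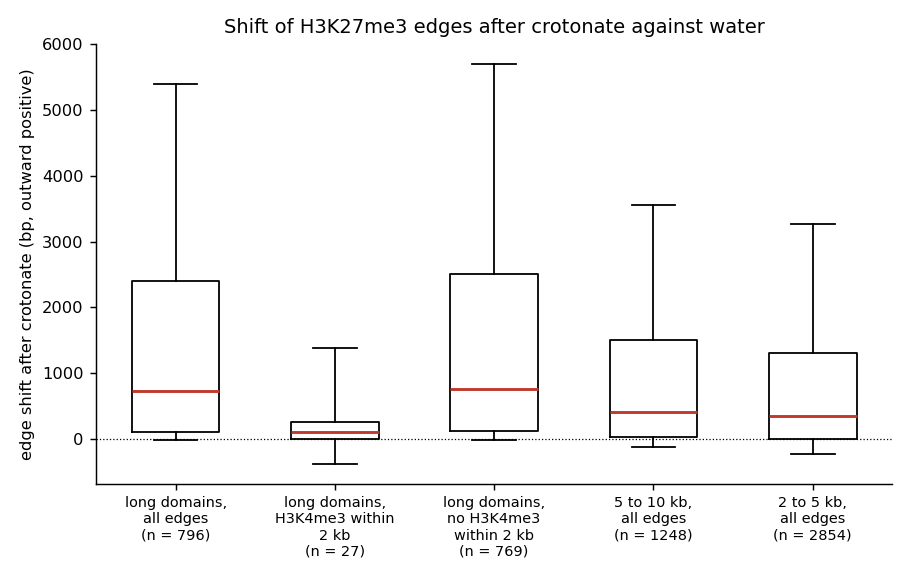
Shift of H3K27me3 edges after crotonate relative to water (vertical, bp, outward positive) for the long domains, for their edges with and without a water H3K4me3 peak within 2 kb, and for shorter water peaks. Boxes show quartiles with the median in red and whiskers the 10th and 90th percentiles. The box for the 27 edges beside H3K4me3 is centred on 102 bp, against 756 bp for the 769 others.

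H3K4me3 inside the domains was measured in libraries that the rule had not used. After crotonate 183 of 398 long domains held an H3K4me3 peak (46.0%, exact 95% interval 41.0 to 51.0%), against 18.9% of the whole water H3K27me3 list. In water 83 did (20.9%, interval 17.0 to 25.2%), against 11.7% of the list. No domain that held H3K4me3 in water lacked it after crotonate, and the same was true of all 897 such peaks in the whole list. For peaks of 5 to 10 kb the shares were 43.6% after crotonate and 26.1% in water. Long domains offer more bases in which a peak may fall, so the covered share is given too. H3K4me3 covered 4.09% of their bases after crotonate and 1.44% in water, less than in peaks of 5 to 10 kb with 9.72% after crotonate and 4.16% in water. In domains of 20000 bp or more it was 2.66% after crotonate and 0.640% in water.

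**Figure D4:**
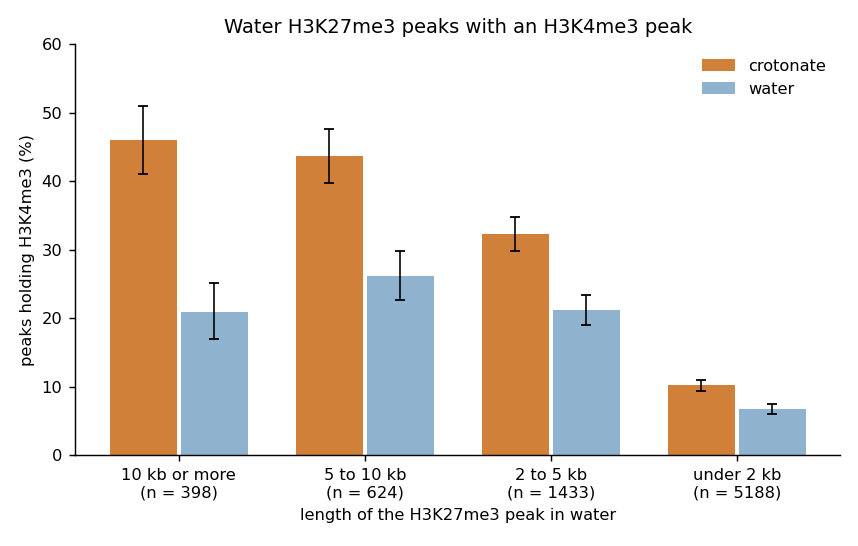
Share of water H3K27me3 peaks that hold at least 1 H3K4me3 peak (vertical, %), by length of the H3K27me3 peak, in crotonate (orange) and water (blue), with exact 95% intervals. In the long domains it is 46.0% after crotonate and 20.9% in water.

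Among the 315 long domains with no H3K4me3 in water, 100 held a peak after crotonate (31.7%, exact 95% interval 26.6 to 37.2%), against 8.14% over the whole water list. The share was 23.6% for peaks of 5 to 10 kb and 14.1% for those of 2 to 5 kb. Per base the order was the other way. New H3K4me3 peaks, meaning crotonate peaks that overlap no water H3K4me3 peak, numbered 173 in 128 long domains, or 23.1 per Mb with an interval of 19.8 to 26.8. The density was 31.7 per Mb in peaks of 5 to 10 kb and 37.7 per Mb in those of 2 to 5 kb. All 173 overlapped a crotonate H3K27me3 peak and 170 lay wholly inside one. Every long domain kept at least 81.9% of its bases under crotonate H3K27me3, so this overlap was largely fixed in advance. With the crotonate lists cut to the length of the water lists by significance, 75 new peaks remained and 34.9% of long domains held H3K4me3 after crotonate. The H3K4me3 library was estimated at 1.16 times the depth after crotonate relative to water, and the part of depth in the new peaks was not tested.

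The H3K4me3 peaks inside long domains were weak. After crotonate they had a median length of 908 bp and a median −log10 q, the authors' significance of the summit, of 10.5, against 1721 bp and 58.7 for H3K4me3 peaks elsewhere. In water the medians were 916 bp and 9.50 inside and 1512 bp and 37.7 elsewhere. New peaks inside had a median of 646 bp and 6.28, against 464 bp and 4.59 for new peaks elsewhere. Position also differed. A protein-coding start lay under 27.7% of crotonate H3K4me3 peaks inside long domains and under 57.9% of those elsewhere. For new peaks it was 22.0% inside and 12.9% elsewhere. Only starts in the promoter table were counted. It held 17491 of 21883 protein-coding genes but 276 of the 397 that overlap a long domain. Genes in long domains were thus missing from it more often, and the part of this in the shares was not tested. Of the 173 new peaks, 118 had their centre nearer to the middle of the domain than to its edge.

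The strongest new H3K4me3 peaks lay on regulators of neurons and of other tissues. That at Lhx4 was 2395 bp long with a fold enrichment over the caller's background of 15.3, and that at Tfap2a, a neural crest factor, 1285 bp with 15.5. Gdf7, Cdk5r2, Isl2, Kcnh3, Onecut1, Tal1 and Fezf2 were also among the 10 strongest. Isl2 and Onecut1 are factors of motor neurons and other neurons, Cdk5r2 is an activator of the neuronal kinase Cdk5, Kcnh3 is a potassium channel gene, Tal1 is a blood and interneuron factor and Fezf2 a factor of subcortical projection neurons. The domains named here were still under H3K27me3, as were all long domains, and all but that of Cdk5r2 had a longer peak after crotonate. Cdk5r2 lay under 11090 bp after crotonate and 11388 bp in water.

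The domains richest in H3K4me3 in water lay mainly over ligands and transcription factors. H3K4me3 covered 44.8% of the Igf2bp1 domain after crotonate and 40.5% in water. This gene encodes an RNA-binding protein of fetal progenitors. At Fgf9 it covered 52.6% after crotonate and 32.5% in water, and at Wnt11, a Wnt ligand, 35.7% after crotonate and 24.6% in water. Sp8, Sp9, Gad1, Lef1, Shh, Runx2 and Bcor completed the 10. In all 10 the share was larger after crotonate. Over the whole water H3K27me3 list H3K4me3 also covered more, with 7.77% of bases after crotonate and 3.70% in water.

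Domains that gained H3K4me3 were seldom split. Of the 100 domains with H3K4me3 after crotonate only, 5 were split and 94 were longer. Of the 83 with H3K4me3 in both, 12 were split and 68 were longer, and of the 215 with none, 41 were split and 174 were longer. In the 1 to 1 domains the median change was 998 bp over 45 domains with H3K4me3 after crotonate only, 455.5 bp over 36 with it in both and 572 bp over 64 with none. The domains with H3K4me3 after crotonate only were also the longest of these groups in water, with a median of 17.4 kb against 13.1 kb with H3K4me3 in both and 14.5 kb with none. This division was made after the peaks had been seen.

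Promoter sequence was then set beside the marks. The table held a promoter for 276 of the 397 genes that overlap a long domain, and 253 promoters of 220 genes had their start in one. Their median was 19 CG per 300 bases, with quartiles of 12 and 26, against 18 in shorter water H3K27me3 peaks, 23 at starts with H3K4me3 and no H3K27me3 in water, and 3 at starts with neither. H3K4me3 lay on 77 of the 253 starts after crotonate (30.4%) and on 32 in water (12.6%). In shorter H3K27me3 peaks the shares were 53.7% after crotonate and 31.2% in water. After crotonate 252 of the 253 starts were still under an H3K27me3 peak, against 828 of 916 starts in shorter peaks. The first count largely follows from the recovery of the long domains, which kept at least 81.9% of their bases.

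Within long domains the promoters with H3K4me3 were the richer in CG. The median was 22 CG at the 45 starts with H3K4me3 after crotonate only, 27 at the 32 with it in both and 16.5 at the 176 with none, and the 3 groups overlapped widely. Among starts without H3K4me3 in water, it was present after crotonate at 4.55% of those with up to 9 CG, 22.2% of those with 10 to 19 and 26.0% of those with 20 or more. In shorter peaks the same shares were 10.2%, 33.2% and 53.6%. The promoters printed above follow this order only in part, since that of Fgf9, marked in both lists, holds 12 CG. Those of Hoxc4 and Hoxa2 hold fewer CG than the lower quartile of starts with no H3K4me3, which is 10. This comparison was also chosen after the peaks had been seen, and other features of the promoters were not compared.

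**Figure D5:**
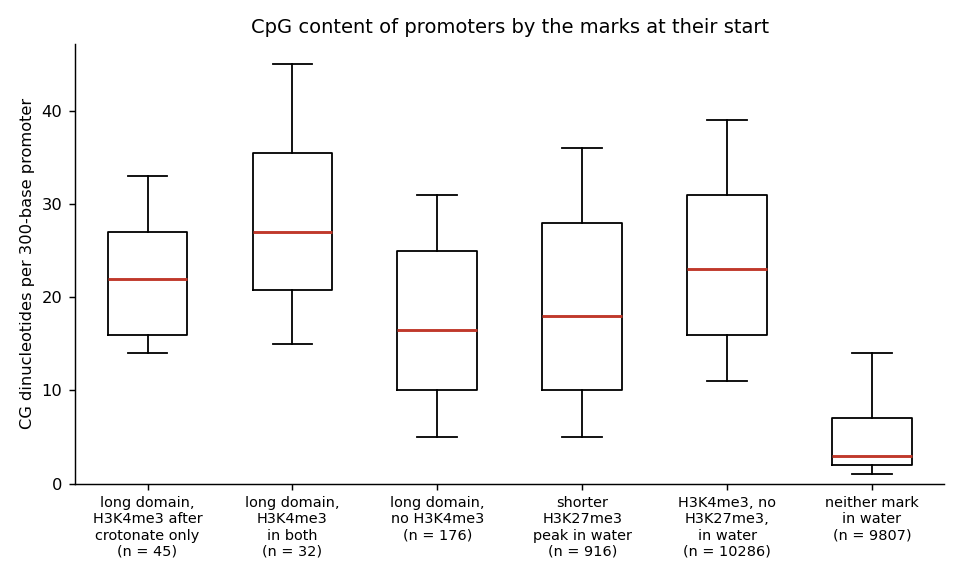
Number of CG dinucleotides per promoter window (vertical) for starts in long domains, by H3K4me3 after crotonate and in water, and for starts elsewhere by their marks in water. Boxes show quartiles with the median in red and whiskers the 10th and 90th percentiles. The medians in long domains are 22 with H3K4me3 after crotonate only, 27 with it in both and 16.5 with none.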

How the data were processed

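CUT&Tag peak lists of H3K4me3 and H3K27me3 from crotonate-treated and water-treated cells were used, 4 lists in all. Per the submitters' processing notes, the authors used MACS2 2.2.7.1, Bowtie2 2.4.1, Picard 2.22.0 and SAMtools 1.10 with the build GRCm38. Settings and the caller's background library were not stated. Per the file headers, each deposited line gives 1-based start, end, length and summit, pileup at the summit (a signal), −log10 of p and of q, and fold enrichment (a linear ratio). These values are the authors' own and were used to describe, rank or filter peaks. Total reads are not given, so relative depth was estimated from pileup steps and the lowest background implied by fold enrichment, read as a ratio with 1 added to both parts, which the headers do not state. Deeper libraries can give more and wider peaks.

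Peaks were compared in Python 3.11.15 (numpy 2.4.6, pandas 2.3.3, scipy 1.17.1, figures with matplotlib 3.10.9), with an overlap of 1 bp. The overlap code was tested on simulated data and against bedtools 2.31.1. Intervals of shares are exact Clopper-Pearson at 95%, and that of new peaks per Mb is exact Poisson at 95%. Intervals of medians, used only to sort the alternatives, were distribution-free. Genes, promoters and microRNAs came from RefSeq tables of GRCm38.p6, covering 21883 protein-coding genes. Only a single library per mark and treatment exists, so no test was made. The members and gene lists were chosen with earlier results of these data known. Domains were named by rule: the 10 longest, those with the largest gain and loss of length, H3K4me3 share in water and new H3K4me3 peak (10 each), the 5 on each side of the limit, list members, and Sox2, Nes, Pax6, Neurog2, Actb and Gapdh. Edge examples, 1 to 1 extremes, families and microRNAs were chosen after their values were seen. Alternatives were other lengths, significance limits, equal list lengths, joining gaps and overlaps. A few genes that the naming rule chose are not reported here.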

Additional observations from a re-analysis of the deposited data

How the results depend on the processing

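No paired analysis was possible because each mark and treatment has 1 library. Across the alternatives run, 57 of the values recomputed for the comparisons stayed within their interval or within 1.5 times the count, and 25 moved. The cause was not tested except where the construction gives it. The share of domains longer after crotonate was 94.7% by the span of all overlapping peaks, 90.2% by their summed length, 87.9% with peaks within 1000 bp joined and 89.0% in 1 to 1 domains. The median log2 change was 0.11 for members of 15000 bp or more, 0.22 with joining and 0.058 in 1 to 1 domains. Edges moved outward in 64.7% with joining, 67.8% at a limit of 200 bp, 44.8% at 1000 bp and 32.8% in 1 to 1 domains, and the median shift was 1169.5 bp with joining and 226 bp in 1 to 1 domains. Split domains made up 7.71% with joining, and joined domains 43.3% with joining and 35.8% at a −log10 q of 5 or more. Any overlap gave 397 genes. H3K4me3 after crotonate lay in 39.0% of domains at a −log10 q of 5 or more and in 34.9% with equal list lengths, and in water in 16.6% at that limit and in 16.9% of members of 15000 bp or more. New H3K4me3 peaks numbered 106 at 15000 bp or more and 75 with equal lists, and the share of domains without H3K4me3 in water that gained a new peak was 38.3% and 18.1% in those settings. The shift of edges beside H3K4me3 lay between 87 and 180.5 bp, and that of other edges between 721 and 852 bp, under the alternatives added after seeing the data.

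Among named domains, those shorter by their longest piece were longer by span at Gbx2 (68 bp), Lhx9 (6223 bp), Celf5 (310 bp), 4930447C04Rik (805 bp), Zfhx4 (268 bp), St8sia2 (225 bp) and at 3 domains with no protein-coding gene on chromosomes 13 (1622 bp), 2 (1584 bp) and 6 (1883 bp). By summed length this was so at Lhx9 (5591 bp) and at the domains on chromosomes 2 (525 bp) and 6 (1543 bp). These domains are split, so their pieces are counted differently by construction.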

Other observations

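The 68 long domains that overlap no protein-coding gene were poor in H3K4me3. Of these, 6 held a peak after crotonate, 4 of which also did in water. Among all 398 long domains, 183 held one after crotonate and 83 in water. The longest domain with no protein-coding gene, chr5:67203344-67235767, had 39814 bp after crotonate and 32424 bp in water. The 10 longest of this kind held no H3K4me3 peak in either list. All 10 were longer after crotonate, as were 336 of all 398 long domains. Windows of this kind may hold non-coding genes, which were not analysed here.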
